A study of Mus musculus with 5 samples.

Results

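Oxidative phosphorylation is carried out by 5 protein complexes of the inner mitochondrial membrane whose subunits are encoded by the mitochondrial and the nuclear genome, and the transcripts of both were followed here in scRNAseq libraries of the ovariectomized mouse mammary gland. Members were taken by gene symbol: every gene whose symbol starts with mt-Nd, mt-Co, mt-Cytb, mt-Atp, Nduf followed by a, b, c, s or v, Cox4 to Cox8, Uqcr, Uqcc or Atp5, together with Sdha, Sdhb, Sdhc and Sdhd. The rule gave 108 of the 27998 genes in the tables. Of these, 13 carry the mt- prefix and lie on the mitochondrial chromosome, and 95 are nuclear genes on 19 chromosomes. No barcode was left out for its mitochondrial share.

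Complexes I to IV pass electrons from NADH and succinate to oxygen, and complexes I, III and IV move protons out of the matrix as they do so. Complex V, the ATP synthase, lets the protons back and makes ATP. Complexes I, III, IV and V hold subunits of both genomes, while complex II is wholly nuclear, so the complexes can only be built when nuclear products are imported and joined to subunits made inside the organelle. Several complex IV subunits exist as paralogues that are used in different tissues, such as Cox4i1 and Cox4i2 or Cox7a2 and Cox7a1.

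The fourth mammary glands (number 4) of BALB/cj mice that had been ovariectomized, with a labelled age of 30 weeks, were digested to single cells, and about 4000 cells were loaded for each of 5 droplet libraries, 1 library per treatment. The treatments began 20 weeks after ovariectomy and lasted 1 week: OVX mice received DMSO vehicle, OVX_E2 mice 17β-estradiol (1 µg per animal per day), OVX_E2_P4 mice estradiol and progesterone (0.1 mg per animal per day), and OVX_E2_PBDE and OVX_E2_P4_PBDE mice the same hormones with food holding 3 polybrominated diphenyl ethers (BDE-47 at 7.1, BDE-100 at 0.4 and BDE-153 at 0.9 mg per kg). Groups without PBDEs ate matched food with DMSO. How many mice stand behind each library is not given in the sources used here, and with 1 library per treatment no difference between treatments could be tested against the spread between animals.

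The libraries held between 2233 and 3536 barcodes and between 19982067 and 42012988 UMIs (unique molecular identifiers, each counting 1 captured transcript), with median UMIs per barcode between 5345 and 8698. Of 14344 barcodes, 546 had more than 5% and 26 more than 10% of their UMIs on the 13 mt- genes, and of the 14263 barcode sequences 79 occurred in 2 libraries and 1 in 3. Clusters were made without the members and named from fixed marker genes: L-Hor-like (hormone-sensing luminal cells, marked by Esr1, Pgr and Prlr), L-Alv-like (alveolar luminal cells, marked by Csn3 and Elf5), basal-like, fibroblast-like, hematopoietic-like and endothelial-like. Each class held its own markers at the highest summed level: L-Hor markers reached 5742 to 7956 CPM (UMIs of a gene per 1000000 UMIs of the class) in L-Hor-like cells and at most 1197 CPM in the other classes, and fibroblast markers 22098 to 33329 CPM in fibroblast-like cells and at most 9569 CPM elsewhere. The classes held 2529, 1051, 413, 7266, 526 and 239 barcodes in this order, and the OVX library held no L-Alv-like class. Clusters with markers of both luminal classes (1988 barcodes, with median UMIs per barcode of 15312 to 25552 in the libraries) and proliferating luminal clusters (310 barcodes) entered no class.

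Within the module the nuclear genes comprised 36 of complex I, 4 of complex II, 8 of complex III, 20 of complex IV, 15 of complex V and 12 assembly factors, and the mt- genes 7 of complex I, 1 of complex III, 3 of complex IV and 2 of complex V. Cox7b2 had no UMI, and Cox6a2 and Cox8c were the other nuclear members under 50 UMIs, with 25 and 1. Over all barcodes the mt- genes of complex IV (mt-Co1, mt-Co2 and mt-Co3) had 1952523 UMIs and the 20 nuclear genes of that complex 1312658 UMIs. For complex I the order was the other way, with 730787 UMIs from 7 mt- genes and 1059268 from 36 nuclear genes. The assembly factors, which help build the complexes but are not part of them, had 59112 UMIs in all.

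Certain pairs of mitochondrial genes overlap on the same strand, and the quotient of their UMIs differed between libraries, so the shorter gene of each pair is shown first. Both are coding sequences of chrM in GRCm38 (GENCODE), read 5′ to 3′ on the + strand. mt-Atp8, a small subunit of the ATP synthase, lies at chrM:7766-7969, and its capitals mark the 43 bases it shares with mt-Atp6. mt-Nd4l, a subunit of complex I, lies at chrM:9877-10173, and its capitals mark the 7 bases it shares with mt-Nd4.
mt-Atp8: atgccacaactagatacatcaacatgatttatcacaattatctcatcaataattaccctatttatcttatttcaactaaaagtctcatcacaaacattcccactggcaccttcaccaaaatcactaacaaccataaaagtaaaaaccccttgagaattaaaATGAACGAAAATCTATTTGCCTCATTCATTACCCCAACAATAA
mt-Nd4l: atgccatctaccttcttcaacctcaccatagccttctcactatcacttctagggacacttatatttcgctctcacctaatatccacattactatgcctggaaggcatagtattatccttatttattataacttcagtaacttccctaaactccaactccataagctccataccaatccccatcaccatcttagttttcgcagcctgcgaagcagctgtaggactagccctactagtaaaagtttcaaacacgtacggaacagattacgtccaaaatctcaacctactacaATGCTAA

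Among nuclear members, Ndufa7 and Uqcr11 were the genes farthest above fibroblast-like cells in L-Hor-like cells, and Atp5g2 was among the genes farthest above them in L-Alv-like cells, so 250 bases before a listed start of each are given from RefSeq (GRCm38.p6). The Ndufa7 window is chr17:33824322-33824571 on the + strand, upstream of the first of the listed starts, and capitals mark the letters TTTATA, which is TATAAA on the other strand. The Uqcr11 window is chr10:80406822-80407071 on the - strand, with CCGGAAG, the core bound by ETS factors, in capitals. The Atp5g2 window is chr15:102671048-102671297 on the - strand, with a match to the NRF1 motif (GCGCA, any base, then GCGC) in capitals, and it lies inside the gene as GENCODE draws it (chr15:102662864-102672352), upstream of a start within the gene.
Ndufa7: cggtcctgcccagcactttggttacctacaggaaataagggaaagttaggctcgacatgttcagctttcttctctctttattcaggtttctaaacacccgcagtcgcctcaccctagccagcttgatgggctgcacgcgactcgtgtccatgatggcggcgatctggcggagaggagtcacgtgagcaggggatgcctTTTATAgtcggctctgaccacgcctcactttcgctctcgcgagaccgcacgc
Uqcr11: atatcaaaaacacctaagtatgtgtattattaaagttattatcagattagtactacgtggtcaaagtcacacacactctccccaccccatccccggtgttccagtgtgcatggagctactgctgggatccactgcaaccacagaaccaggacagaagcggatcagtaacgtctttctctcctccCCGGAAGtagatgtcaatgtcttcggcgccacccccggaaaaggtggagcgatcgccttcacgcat
Atp5g2: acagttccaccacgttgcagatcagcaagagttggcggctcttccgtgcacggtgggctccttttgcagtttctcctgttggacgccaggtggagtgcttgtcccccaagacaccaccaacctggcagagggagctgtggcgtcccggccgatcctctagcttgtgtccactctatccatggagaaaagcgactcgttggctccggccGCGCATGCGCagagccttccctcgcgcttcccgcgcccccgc

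Windows were searched on both strands for 76 of the 95 nuclear members and for 27025 genes in all. Windows on chromosome 18, which holds the members Ndufa2 and Atp5a1, were left out. A gene was counted if any window of its listed starts held the motif, so genes with more starts had more windows to match. The NRF1 motif occurred in 15 of the 76 members (19.7%) and in 1144 of all genes (4.23%). CCGGAAG occurred in 13 members (17.1%) and in 2115 of all genes (7.83%). TATAAA occurred in 6 members (7.89%) and in 3872 of all genes (14.3%). These matches describe the letters of the windows and do not show that a factor was bound.

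The 2 genomes ranked the cell classes differently. Nuclear members took their largest share of UMIs in L-Hor-like cells in all 5 libraries, whereas mt- genes took theirs in endothelial-like cells in all 5. In L-Hor-like cells the nuclear members made up 3.47%, 3.69%, 3.88%, 3.60% and 4.10% of UMIs in OVX, OVX_E2, OVX_E2_PBDE, OVX_E2_P4 and OVX_E2_P4_PBDE, the order used for lists of 5 values from here on. The other classes lay between 1.78% and 3.14% in every library and did not overlap with L-Hor-like cells. Proliferating luminal clusters, kept out of the classes, had 3.64%, 3.22%, 3.33% and 3.60% in OVX_E2, OVX_E2_PBDE, OVX_E2_P4 and OVX_E2_P4_PBDE. These shares were below L-Hor-like cells of the same library, but their range overlapped with that of L-Hor-like cells.

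The mt- genes made up 5.80%, 4.73%, 5.82%, 5.88% and 4.44% of UMIs in endothelial-like cells and 4.52%, 4.17%, 4.83%, 5.24% and 3.45% in basal-like cells. Endothelial-like cells were above basal-like cells in each library, although the ranges over libraries overlapped. This order holds for unscaled UMI shares, and the scaled contrasts given further below did not keep it. The mt- shares of L-Hor-like cells, which led for nuclear genes, were 3.42%, 3.11%, 3.45%, 3.94% and 2.89%. Fibroblast-like cells were lowest for mt- genes in each library, at 1.83%, 1.55%, 1.60%, 2.34% and 1.39%. Nuclear shares of fibroblast-like cells were 1.78%, 2.03%, 2.13%, 2.13% and 2.27%.

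The quotient of mt- to nuclear UMIs summarized this split. It was 1.41 to 2.06 over libraries in endothelial-like cells and 1.33 to 2.5 in basal-like cells, so that mt- transcripts outnumbered nuclear ones in both classes in each library. It was 0.703 to 1.10 in L-Hor-like cells, 1.10 to 1.41 in L-Alv-like cells, 0.913 to 1.46 in hematopoietic-like cells and 0.612 to 1.10 in fibroblast-like cells. The classes differed in depth beside this: median UMIs per barcode were 4252 to 7032 in fibroblast-like, 5154 to 9058 in endothelial-like, 5527 to 10452 in L-Hor-like and 5516 to 11465 in basal-like cells, and the part of depth in these shares was not tested.

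**Figure D1:**
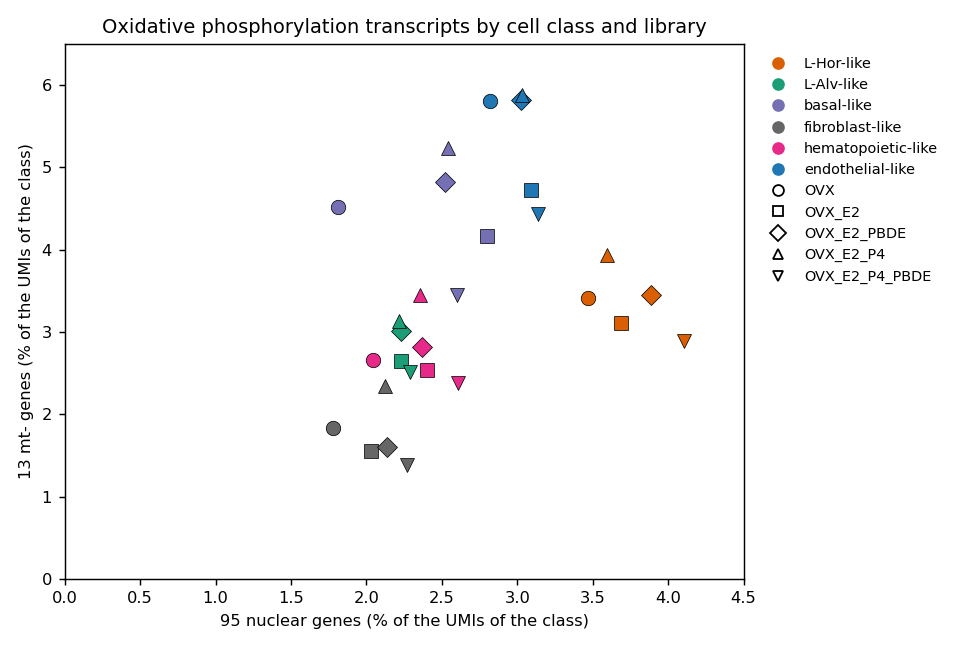
Each point is 1 cell class in 1 library: the x axis gives the 95 nuclear genes and the y axis the 13 mt- genes, both as % of the UMIs of the class. L-Hor-like points lie farthest right (3.47% to 4.10%) and endothelial-like points highest in each library (4.44% to 5.88%), with fibroblast-like points at the lower left.

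Barcodes of high mitochondrial share were unevenly spread over the classes. Barcodes with over 5% of UMIs on mt- genes made up 31.0% to 69.7% of endothelial-like and 4.69% to 53.9% of basal-like barcodes in the 5 libraries. In fibroblast-like cells they were 0.113% to 2.84% and in L-Hor-like cells 0.340% to 9.70%. The 26 barcodes over 10% comprised 8 fibroblast-like, 6 basal-like, 5 endothelial-like, 2 L-Alv-like and 1 L-Hor-like barcodes, 3 of mixed luminal and 1 of proliferating luminal clusters.

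Spearman's rho between the mt- and nuclear shares of single barcodes was 0.21 over all barcodes of OVX and 0.44 to 0.60 over those of the other 4 libraries. Within a class of a library it lay between -0.30 and 0.32. Both shares have the barcode's own UMI total as denominator, and the values are descriptions of barcodes that share a library.

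Fibroblast-like clusters, grouped by their leading genes, differed in mt- share more than in nuclear share. The Pi16 type had mt- shares of 1.54%, 1.13%, 1.26%, 1.62% and 1.14%, and the Crabp1 type 3.16%, 2.60%, 3.06%, 3.74% and 2.03%. The Smoc2 type, found in 4 libraries, had 2.12%, 1.95%, 1.88% and 2.92%. In OVX_E2_P4_PBDE no separate Smoc2 cluster was found, and the cluster counted as Crabp1 type was also led by Fbln7, Mmp3 and Scg3, which led the Smoc2 type in OVX_E2_P4, so that its 2.03% stands for a mixed cluster. In the other 4 libraries the Crabp1 type lay at 2.60% to 3.74% and the Pi16 type at 1.13% to 1.62%, without overlap. Nuclear shares were 1.83% to 2.21% in the Pi16 type and 1.85% to 2.44% in the Crabp1 type, and these overlapped. These types are clusters of the same cells, so their difference is a description with no test, and median UMIs per barcode were 4242 to 7197 and 3985 to 6550 in the Pi16 and Crabp1 types.

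Composition within the mt- genes was similar across libraries for the abundant genes. Over all barcodes mt-Atp6, the proton-channel subunit of the ATP synthase, took 20.3% to 24.7% of mt- UMIs, and mt-Co1, the catalytic subunit of complex IV, took 19.2% to 23.2%. mt-Co3 took 16.5% to 20.3% and mt-Cytb, the cytochrome b of complex III, 9.88% to 10.7%. mt-Nd6, the only member transcribed from the other mitochondrial strand, took 0.0480% to 0.108%.

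To compare compartments over libraries, UMIs were summed per class and library and fitted with edgeR's quasi-likelihood test with the library as a block, and a gene was called at a Benjamini-Hochberg adjusted p under 0.05 over all genes. The libraries carry different treatments and serve as the replicates of these contrasts, and the classes are clusters of the same cells built from genes other than the members. The block takes up what both classes of a library share. The p-values set the class difference against its own spread over 5 libraries, or 4 in the contrasts with L-Alv-like cells. That spread also holds any class difference that changes with treatment. No separate culture or animal replicate is recorded for the libraries. Fold changes are log2 differences after TMM scaling, with the standard error of the fit.

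Against fibroblast-like cells, L-Hor-like cells were higher for 78 and lower for 3 of the 90 nuclear members tested, and higher for all 13 mt- genes. Of all 11633 genes, 36.1% were higher and 36.3% lower in the same contrast. The median log2 fold change was 0.64 over the nuclear members and 0.89 over the mt- genes, with a median of 0.00 over all genes tested. The 5 nuclear members that did not enter this fit were the complex IV paralogues Cox4i2, Cox6a2, Cox7b2, Cox8b and Cox8c, removed by the filter on low counts.

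The call covered each complex. Higher in L-Hor-like cells were 32 of 36 nuclear complex I genes, 3 of 4 of complex II, 8 of 8 of complex III, 13 of 15 of complex IV and 15 of 15 of complex V, with 7 of 12 assembly factors. In complex II, Sdhc, a membrane anchor of succinate dehydrogenase, differed by 1.00 (edgeR adjusted p = 1.30e-07), while Sdha, the flavin-bearing catalytic subunit, differed by -0.01 (edgeR adjusted p = 0.891). The 3 genes lower in L-Hor-like cells were Ndufa4l2, Ndufaf4 and Uqcc2, of which the last 2 are assembly factors of complexes I and III.

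Ndufa7, an accessory subunit of complex I whose upstream window is given above, was at 1079, 1123, 1404, 1135 and 1489 CPM in L-Hor-like cells. In fibroblast-like cells it was at 236, 275, 313, 342 and 371 CPM. The lowest L-Hor-like library was above the highest fibroblast-like library, and the log2 difference was 1.97 ± 0.09 (SE, n = 5 libraries; edgeR adjusted p = 4.06e-10). Uqcr11, a small subunit of complex III, was at 972, 1022, 1135, 1018 and 1368 CPM in L-Hor-like cells and 236, 271, 314, 312 and 366 CPM in fibroblast-like cells, again without overlap. Its log2 difference was 1.82 ± 0.08 (edgeR adjusted p = 4.52e-10). Both genes were highest in the OVX_E2_P4_PBDE library and lowest in the OVX library in each class.

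Cox5a, a subunit of complex IV, was 1.53 ± 0.09 higher on the log2 scale in L-Hor-like cells, with 373 to 502 CPM against 131 to 160 CPM. Ndufa4, which is now counted with complex IV, was 1.46 ± 0.08 higher, at 927 to 1107 against 281 to 412 CPM. The low-level paralogue Cox6b2 was also 1.46 ± 0.18 higher, at 11.6 to 25.5 against 5.56 to 9.23 CPM. At the other end of the called members, Ndufa11 and Uqcrc1 were 0.19 ± 0.08 and 0.23 ± 0.08 higher (edgeR adjusted p = 0.0399 and 0.0225).

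**Figure D2:**
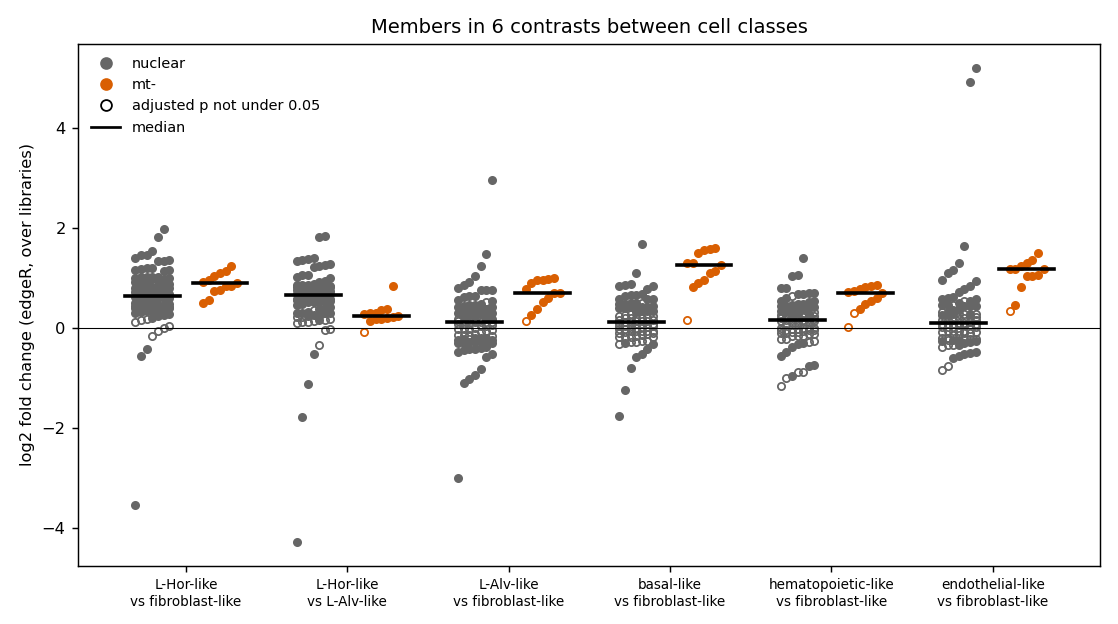
Each point is 1 member in 1 contrast between cell classes, with the edgeR log2 fold change over libraries on the y axis; open points have an adjusted p of 0.05 or more and bars are medians. The nuclear median is 0.64 and 0.65 in the contrasts of L-Hor-like cells and between 0.08 and 0.16 in the others, while the mt- median is highest, at 1.26 and 1.16, in basal-like and endothelial-like against fibroblast-like cells.

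The difference was also present between the luminal classes, over the 4 libraries that held both. L-Hor-like cells were higher than L-Alv-like cells for 74 and lower for 4 of 90 nuclear members, where 31% of all genes were higher and 31.6% lower. The nuclear median was 0.65 against 0.00 over all genes tested. The mt- median was 0.24, with 12 of 13 mt- genes higher and none lower, and mt-Co1 at -0.08 ± 0.04 (edgeR adjusted p = 0.108). On the nuclear side, 30 of 36 complex I genes, 3 of 4 of complex II, 8 of 8 of complex III, 13 of 15 of complex IV and 13 of 15 of complex V were higher.

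Assembly factors moved in both directions between the luminal classes. Ndufaf3, which acts early in complex I assembly, was at 56.1, 56.3, 45.5 and 57.2 CPM in L-Hor-like cells of OVX_E2, OVX_E2_PBDE, OVX_E2_P4 and OVX_E2_P4_PBDE and at 11.6, 14.7, 13.7 and 15.2 CPM in L-Alv-like cells. The log2 difference was 1.83 ± 0.13 (edgeR adjusted p = 2.66e-10). Ndufaf4, its binding partner in assembly, was the other way, at 11.4, 10.4, 12.7 and 12.9 CPM in L-Hor-like and 40.3, 37.2, 34.3 and 49.3 CPM in L-Alv-like cells. It was lower in L-Hor-like cells by 1.79 on the log2 scale in all 4 libraries (log2 fold change -1.79 ± 0.13, edgeR adjusted p = 3.42e-10), and neither gene overlapped between the classes.

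Ndufa1, an accessory subunit of complex I on the X chromosome, was at 260 to 384 CPM in L-Hor-like and 102 to 132 CPM in L-Alv-like cells, a log2 difference of 1.39 ± 0.08. Uqcr11 and Ndufa7 were 1.37 ± 0.07 and 1.35 ± 0.06 higher, and Cox6b2 1.82 ± 0.17 higher. Besides Ndufaf4, the genes lower in L-Hor-like cells were the paralogues Cox4i2 (-4.29 ± 0.41) and Cox7a1 (-1.13 ± 0.19) and the assembly factor Ndufaf1 (-0.53 ± 0.19). mt-Co2 had the smallest called difference, at 0.13 ± 0.04.

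L-Alv-like cells stood apart from fibroblast-like cells for mt- genes but not on balance for nuclear ones. Higher were 35 and lower 26 of 91 nuclear members, where 34% and 36% of all genes were, and the nuclear median was 0.11 against 0.00 over all genes. By contrast 12 of 13 mt- genes were higher, with a median of 0.69, and mt-Nd6 differed by 0.14 ± 0.16 (edgeR adjusted p = 0.441). Of 36 nuclear complex I genes, 13 were lower and 8 higher, with a median of -0.05. The lower ones thus lay near the 36% of all genes. Of 15 complex V genes, 9 were higher and 2 lower, with a median of 0.23. With classes set by each barcode's own marker UMIs the 26 lower genes became 16. In complex II, Sdhb, the iron-sulfur subunit, and Sdhd, the other membrane anchor, were lower by log2 changes of -0.28 and -0.31.

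Among complex V genes, Atp5g2, 1 of 3 genes for the membrane ring subunit c, was at 785, 770, 799 and 710 CPM in L-Alv-like cells of the 4 libraries and 374, 385, 412 and 390 CPM in the fibroblast-like cells of the same libraries. The groups did not overlap, and the log2 difference was 1.04 ± 0.07 (edgeR adjusted p = 8.89e-10). Ndufaf4 was 1.23 ± 0.12 higher and mt-Nd4, a membrane-arm subunit of complex I, 1.00 ± 0.09 higher. Lower in L-Alv-like cells were Uqcc2 (-1.11 ± 0.08), Ndufa1 (-1.03 ± 0.08), Ndufv3 (-0.83 ± 0.08) and Ndufaf7 (-0.59 ± 0.20), with Ndufa1 at 102 to 132 CPM against 218 to 308 CPM.

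Basal-like cells were higher than fibroblast-like cells for 29 and lower for 8 of 89 nuclear members (28.2% and 29.2% of all genes), with a median of 0.11 against 0.01 over all genes. Without the OVX_E2 or the OVX_E2_PBDE library the 29 became 18 and 19, with DESeq2 18, and without a filter on low counts 17 higher and 16 lower. The mt- median was 1.26, the highest of the 6 contrasts, and 12 of 13 mt- genes were higher. mt-Nd4 was at 2598, 2221, 2795, 2893 and 1794 CPM in basal-like cells and 869, 667, 728, 1085 and 545 CPM in fibroblast-like cells, without overlap, a log2 difference of 1.60 ± 0.11 (edgeR adjusted p = 1.88e-08). mt-Nd3, mt-Cytb and mt-Atp6 were 1.57 ± 0.13, 1.56 ± 0.11 and 1.49 ± 0.11 higher, Cox6b2 was 1.68 ± 0.23 higher, and mt-Nd6 differed by 0.14 ± 0.21 (edgeR adjusted p = 0.588).

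Ndufv3, an accessory subunit beside the NADH site of complex I, was the called nuclear subunit farthest below fibroblast-like cells with the same sign in all 5 libraries. It was at 60.8, 98.0, 89.3, 88.0 and 147 CPM in basal-like and 185, 205, 226, 210 and 255 CPM in fibroblast-like cells, a log2 change of -1.25 ± 0.14 (edgeR adjusted p = 2.34e-06). Uqcc2, Ndufa13, Ndufa3 and Sdhd were lower at -0.81 ± 0.12, -0.58 ± 0.11, -0.53 ± 0.12 and -0.43 ± 0.14.

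Hematopoietic-like cells were higher for 28 and lower for 8 of 89 nuclear members, where 26.8% and 28.2% of all genes were, with a median of 0.16 against -0.03 over all genes. Higher were 11 of 15 complex V and 9 of 14 complex IV genes, with none lower, and of 12 assembly factors 0 were higher and 2 lower. Without the OVX_E2_PBDE or the OVX_E2_P4 library the 8 lower genes became 5, and with the 20% of barcodes of highest Scrublet (doublet) score left out the 28 higher and 8 lower became 7 and 2. Fibroblast markers summed to 1206 to 9569 CPM in this class, highest in OVX, and their part in the result was not tested.

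Cox5a was at 334, 475, 355, 428 and 363 CPM in hematopoietic-like cells and 131, 160, 154, 157 and 154 CPM in fibroblast-like cells, a log2 difference of 1.40 ± 0.11 (edgeR adjusted p = 2.74e-06) with no overlap. Uqcrfs1, the iron-sulfur protein of complex III, was 1.03 ± 0.12 higher, at 218 to 339 against 114 to 140 CPM. Ndufaf2, Uqcc2, Ndufa5, Ndufs4 and Ndufs7 were lower at -0.97 ± 0.17, -0.76 ± 0.11, -0.75 ± 0.12, -0.56 ± 0.13 and -0.48 ± 0.12. The mt- median was 0.70 with 11 of 13 genes higher, led by mt-Co2 (0.86 ± 0.08), mt-Atp6 (0.84 ± 0.07) and mt-Nd3 (0.82 ± 0.13), while mt-Nd4l (0.29 ± 0.13) and mt-Nd6 (0.02 ± 0.20) had adjusted p of 0.0852 and 0.969 (edgeR).

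Endothelial-like cells were higher for 29 and lower for 12 of 91 nuclear members (23.6% and 27.1% of all genes), with a median of 0.08 against -0.03 over all genes tested, and when counts were scaled to library totals in place of TMM the calls were 68 higher and 0 lower, with the median of all genes at 0.43. Without the OVX_E2_PBDE or the OVX_E2_P4_PBDE library the 12 lower genes became 6, and with barcodes over 5% mt- UMIs left out, over 3 libraries, the calls were 15 higher and 6 lower. The mt- median was 1.16 and 12 of 13 mt- genes were higher, with mt-Nd6 at 0.33 ± 0.27 (edgeR adjusted p = 0.328). After TMM scaling this median lay below the 1.26 of basal-like cells, whereas the unscaled mt- share was higher in endothelial-like cells in each library. The 2 classes were not contrasted directly. mt-Atp6 was at 15781, 13029, 15786, 15192 and 10095 CPM in endothelial-like and 4115, 3343, 3425, 5080 and 2494 CPM in fibroblast-like cells, without overlap, a log2 difference of 1.49 ± 0.10 (edgeR adjusted p = 6.81e-13). mt-Nd4 was 1.35 ± 0.10 higher, and Ndufv3, Ndufa3, Cox7a2l, Sdhd and Ndufa13 were lower at -0.61 ± 0.12, -0.56 ± 0.11, -0.52 ± 0.10, -0.51 ± 0.15 and -0.49 ± 0.10.

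Subunit paralogues of complex IV were higher than in fibroblast-like cells in the endothelial-like class, in which pericyte markers were also at their highest. Cox4i2, the lung-type and oxygen-responsive form of subunit 4, was at 50.6, 53.6, 49.9, 37.6 and 50.4 CPM there and at most 1.64 CPM in fibroblast-like cells, a log2 difference of 5.20 ± 0.30 (edgeR adjusted p = 1.18e-14). Ndufa4l2, the hypoxia-inducible paralogue of Ndufa4, was at 187, 215, 186, 161 and 163 CPM in endothelial-like and 6.77, 3.58, 2.74, 8.35 and 2.5 CPM in fibroblast-like cells, a log2 difference of 4.91 ± 0.21 (edgeR adjusted p = 2.01e-17). Neither gene overlapped between these classes in any library. Cox6b2 was 1.63 ± 0.25 higher, at 23.6 to 42.8 against 5.56 to 9.23 CPM. It was not particular to this class, since it was also 1.68 ± 0.23 higher in basal-like and 1.46 ± 0.18 higher in L-Hor-like cells.

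The endothelial-like class also held barcodes in which pericyte markers led. Their mean levels over libraries were 110 CPM of Cox4i2 and 387 CPM of Ndufa4l2, from 37 barcodes in all. Over the whole class, these barcodes included, the means were 48.4 and 182 CPM. Pericyte markers summed to 1173 to 1671 CPM in the class and at most 47.4 CPM in the fibroblast-like class. They were not confined to the 37 barcodes, since in OVX the barcodes led by endothelial markers held 1415 CPM of them. The part of pericyte markers in the 2 contrasts was not tested.

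As a share of the UMIs of Cox4i1 and Cox4i2 together, Cox4i2 made up 2.63% to 4.00% in endothelial-like cells over the 5 libraries. It made up 0.399% to 0.583% in L-Alv-like, 0.0633% to 0.142% in fibroblast-like and 0% to 0.0653% in L-Hor-like cells, so the L-Alv-like range lay clear of both. The L-Alv-like values rest on 9.06, 7.85, 6.70 and 7.58 CPM of Cox4i2 in the 4 libraries, 92 UMIs in all, and the log2 difference from fibroblast-like cells was 2.96 ± 0.31 (edgeR adjusted p = 1.50e-07). Ndufa4l2 made up 18.8% to 23.0% of the UMIs of Ndufa4 and Ndufa4l2 in endothelial-like and 0.646% to 2.35% in fibroblast-like cells. It was lower than in fibroblast-like cells by log2 changes of -3.55 ± 0.40 in L-Hor-like and -3.01 ± 0.45 in L-Alv-like cells, where it did not exceed 0.562 and 0.947 CPM.

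Cox7a1, the heart and muscle form of subunit 7a, was at 18.6, 22.5, 21.6 and 15.2 CPM in L-Alv-like cells and 6.56, 8.80, 6.39 and 9.23 CPM in the fibroblast-like cells of the same libraries. The log2 difference was 1.47 ± 0.17 (edgeR adjusted p = 6.18e-07) and the classes did not overlap. In L-Hor-like cells it was at 19.4 CPM in OVX and between 6.60 and 13.5 CPM in the other 4 libraries, and in endothelial-like cells between 7.79 and 21.5 CPM, a range that overlapped with L-Alv-like cells. In basal-like cells it was 1.77 lower than in fibroblast-like cells on the log2 scale (-1.77 ± 0.55, edgeR adjusted p = 0.0127), in 4 of 5 libraries. This value rests on 11 UMIs of Cox7a1 in basal-like cells, 9 of them in OVX_E2_P4_PBDE. In that library basal-like cells also held more L-Alv markers than in OVX_E2_P4, and the part of these markers was not tested. Cox7a1 made up 3.58% to 5.18% of the UMIs of Cox7a1 and Cox7a2 in L-Alv-like, 0.773% to 2.34% in L-Hor-like and 1.8% to 2.41% in fibroblast-like cells. UMIs were not divided by transcript length, since each counts 1 captured 3′ end, and these shares are compared only between classes.

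**Figure D3:**
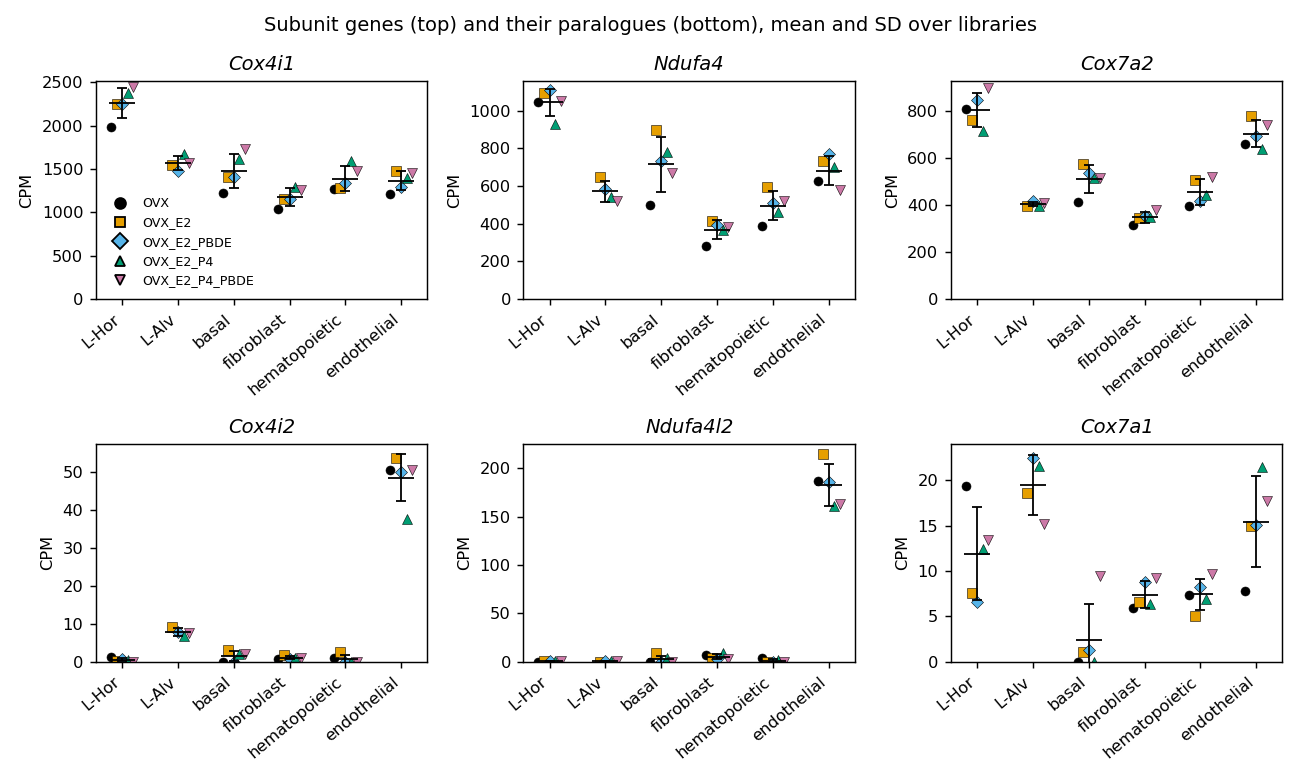
CPM (y axis) of 3 complex IV genes (top) and their paralogues (bottom) in 6 cell classes (x axis), with 1 point per library and the mean and SD over libraries as bars. Cox4i2 and Ndufa4l2 lie at 37.6 to 53.6 and 161 to 215 CPM in endothelial-like cells and at no more than 9.06 CPM in any other class, and Cox7a1 lies at 15.2 to 22.5 CPM in L-Alv-like and 7.79 to 21.5 CPM in endothelial-like cells.

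Unlike Cox7a1, the muscle-type paralogues Cox6a2 and Cox8b were nearly absent, with exceptions in few barcodes. Cox6a2 had 17 UMIs in hematopoietic-like cells, of 25 in all, and none in basal-like or endothelial-like cells. Cox8b had 154 of its 183 UMIs in fibroblast-like cells, and 112 of these came from 69 barcodes of the OVX library. Its level in fibroblast-like cells was 8.15, 0.447, 1.06, 4.26 and 0 CPM. Within the fibroblast-like class, the Smoc2 type had 17.6 CPM in OVX and 12.1 CPM in OVX_E2_P4, the Crabp1 type 18.0 CPM from 8 UMIs in OVX, and the Pi16 type at most 0.525 CPM. Erythroid markers summed to 475 CPM in OVX fibroblast-like cells, 834 CPM in their Smoc2 type and 9.85 to 35.2 CPM in fibroblast-like cells of the other 4 libraries, and one OVX cluster of the Smoc2 type was led by the hemoglobin genes Hbb-bs, Hba-a2, Hba-a1 and Hbb-bt. Brown adipocyte markers summed to 1.75 CPM in OVX and 1.83 to 5.86 CPM in the others, and the part of the erythroid signal in the Cox8b level was not tested. Of the UMIs of the 3 genes for subunit c, whose mature products are alike, Atp5g2 made up 43.0% to 58.4% over the classes and libraries. Atp5g3 made up 21.7% to 26.7% in endothelial-like cells. L-Hor-like cells, at 14.4% to 16.8%, and L-Alv-like cells, at 15.2% to 16.5%, lay below without overlap. The share was not particular to endothelial-like cells, since basal-like cells, at 15.7% to 24.6%, overlapped with them. In OVX the basal-like share was the higher, at 24.2% against 22.5% in endothelial-like cells.

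Counted gene by gene, 38 of the 95 nuclear members had their highest CPM of the 6 classes in L-Hor-like cells in each of the 4 libraries that held every class. Another 13 were highest in endothelial-like cells and 1 in basal-like cells in each of the 4, 42 changed class between libraries, and 1 had no UMI. Of the mt- genes, 6 were highest in endothelial-like cells in each of the 4 and 7 changed class. No such count was made over all genes, so these counts have no share of all genes to be set against.

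Other genes of the pathway were read from fixed lists. In L-Hor-like against fibroblast-like cells, where 36.1% of all genes were higher and 36.3% lower, 10 of 16 tricarboxylic acid cycle genes were higher and 1 lower (median 0.55), as were 9 and 2 of 14 glycolysis genes (median 0.60). Of respiratory chain genes outside the symbol rule, among them cytochrome c (Cycs) and Cyc1, 14 of 26 were higher and 2 lower (median 0.58), of genes for mitochondrial biogenesis 8 of 13 and 2 (median 0.60), and of carriers and pores 6 of 10 and 2 (median 0.63). In the carrier list the 2 adenine nucleotide translocases went apart, Slc25a5 at 1.34 and Slc25a4 at -1.36, and in the biogenesis list the nuclear receptor Esrrg differed by 4.32 (edgeR adjusted p = 3.77e-07), genes named after their values were seen. In the contrast of the luminal classes, where 31% of all genes were higher and 31.6% lower, the counts higher and lower were 7 and 3 of 16 for the tricarboxylic acid cycle, 7 and 3 of 14 for glycolysis, 12 and 6 of 26 for the respiratory chain outside the rule, 4 and 4 of 11 for biogenesis and 4 and 1 of 10 for carriers. The medians of these lists, 0.09 to 0.40, lay below the 0.65 of the nuclear members.

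For the treatments, the share of each gene group was compared between single libraries within each class. Ratios have exact 95% intervals that cover counting error only, since no spread between animals can be had from 1 library per treatment. A gene was counted as past the fold at a ratio of at least 1.5 either way with at least 50 UMIs over both libraries.

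Between OVX_E2 and OVX, the mt- and nuclear shares lay on opposite sides of 1 in each class. The nuclear ratio was above 1 in all 5 classes, from 1.06 to 1.55, and the mt- ratio below 1 in all 5, from 0.814 to 0.956, with intervals that held no 1. Immediate early and heat shock genes were higher in OVX than in OVX_E2 in the same 5 classes, at 6462 against 4934 CPM in L-Hor-like, 11282 against 5629 in basal-like, 8919 against 6937 in fibroblast-like, 4973 against 1827 in hematopoietic-like and 12445 against 10860 in endothelial-like cells, and their part in the ratios was not tested. Over all barcodes without regard to class, however, the mt- ratio was 1.15 (1.15 to 1.16), above 1 and against each class, and fibroblast-like cells, which have the lowest mt- share, made up 2566 of 3109 barcodes in OVX and 943 of 2233 in OVX_E2.

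The nuclear ratio was highest in basal-like cells, at 1.55 (1.51 to 1.59), from 1.81% in OVX to 2.80% in OVX_E2. There 41 of 77 nuclear members were at least 1.5-fold higher and none lower, where 16.1% of all genes were higher and 22.6% lower, and the median log2 ratio was 0.63 against -0.10 over all genes. Uqcr11 was at 253 CPM in basal-like cells of OVX and 472 to 612 CPM in the other 4 libraries, and Cox5a at 129 CPM and 243 to 310 CPM. The OVX library was thus the lowest of the 5 in this class for both genes and for the nuclear share. In the same 61 OVX basal-like barcodes, immediate early and heat shock genes summed to 11282 CPM against 4098 to 6140 CPM in the other libraries, basal markers to 14887 against 5900 to 11262 CPM, fibroblast markers to 3029 against 891 to 1454 CPM, and median UMIs were 5516 against 8290 to 11465. The part of these in the ratio was not tested.

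In the other classes the nuclear genes differed less between OVX_E2 and OVX. In L-Hor-like cells 0 of 87 nuclear members were 1.5-fold higher and 5 lower (5.05% and 26.9% of all genes), and the median log2 ratio was 0.06 against -0.29 over all genes. In fibroblast-like cells 0 of 91 were higher and 2 lower (8.37% and 4.91%), with a median of 0.17 against 0.05. Cox8b in fibroblast-like cells had the lowest ratio, 0.0549 (0.0111 to 0.165), from 112 UMIs in OVX to 3 in OVX_E2. Cox7a1 in L-Hor-like cells was at 0.391 (0.210 to 0.765) from 38 UMIs in OVX_E2 and 15 in OVX. Ndufa4 in fibroblast-like cells was at 1.47 (1.40 to 1.54), with Atp5g2 and Ndufb5 at 1.39 (1.32 to 1.46 and 1.30 to 1.49).

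Between OVX_E2_P4 and OVX_E2 the sides were exchanged for mt- genes, whose ratio was above 1 in all 6 classes, from 1.19 to 1.51. It was 1.27 (1.26 to 1.28) in L-Hor-like and 1.51 (1.5 to 1.52) in fibroblast-like cells. The nuclear ratio was 0.907 to 1.05, above 1 in fibroblast-like cells only. In fibroblast-like cells 5 mt- genes and 1 nuclear gene of 90 were at least 1.5-fold higher, where 4.08% of all genes were, with none lower (4.65% of all genes). The nuclear gene was Ndufa4l2, at 8.35 against 3.58 CPM, a ratio of 2.33 (1.40 to 3.99). mt-Co3, a core subunit of complex IV, was at 4649 against 2713 CPM and mt-Cytb at 2251 against 1334 CPM. In L-Hor-like cells 1 of 89 nuclear members was past the fold in each direction, with 3.96% of all genes higher and 5.44% lower. There mt-Co1 was at 8231 against 5776 CPM, a ratio of 1.43 (1.41 to 1.45), while mt-Nd4l went the other way at 222 against 362 CPM.

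Between OVX_E2_PBDE and OVX_E2 the mt- ratio was above 1 in all 6 classes, at 1.03 to 1.23, and the nuclear ratio 0.901 to 1.05. No nuclear member of 89 in L-Hor-like or 90 in fibroblast-like cells was past the fold, where 2.07% of all genes were higher and 7.98% lower in L-Hor-like and 1.04% and 8.58% in fibroblast-like cells. mt-Nd3, a small membrane subunit of complex I, was at 348 against 146 CPM in L-Hor-like cells, a ratio of 2.39 (2.20 to 2.59), and at 123 against 62.2 CPM in fibroblast-like cells, a ratio of 1.97 (1.77 to 2.20). Over the 5 libraries mt-Nd3 in L-Hor-like cells was at 193, 146, 348, 197 and 174 CPM, so that OVX_E2_PBDE alone stood apart, and the other PBDE library did not. Atp5k, the subunit e of the ATP synthase, was at 447 against 314 CPM in L-Hor-like and 294 against 209 CPM in fibroblast-like cells, ratios of 1.42 (1.34 to 1.51) and 1.41 (1.32 to 1.49).

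Between OVX_E2_P4_PBDE and OVX_E2_P4 the mt- ratio was below 1 in all 6 classes, at 0.593 to 0.801, and the nuclear ratio above 1 in all 6, at 1.02 to 1.14. In basal-like cells, where the mt- ratio was 0.659, basal markers summed to 5900 CPM in OVX_E2_P4_PBDE against 10725 CPM in OVX_E2_P4, L-Alv markers to 1651 against 374 CPM and L-Hor markers to 1197 against 386 CPM, and their part in this ratio was not tested. In fibroblast-like cells 7 of 13 mt- genes were at least 1.5-fold lower, and 0 nuclear members were higher and 1 lower of 88 (2.6% and 9.18% of all genes), with median log2 ratios of -0.63 for mt-, 0.08 for nuclear and -0.08 for all genes. mt-Atp6 was at 2494 against 5080 CPM and mt-Nd4 at 545 against 1085 CPM in these cells. In L-Hor-like cells 2 mt- genes were lower and 1 nuclear member of 89 was higher (3.18% and 9.27% of all genes higher and lower). That nuclear member was Atp5k, at 532 against 338 CPM, a ratio of 1.58 (1.49 to 1.67), followed by Ndufa3 at 1.49 (1.40 to 1.58) and Ndufa1 at 1.48 (1.38 to 1.58). Atp5k was thus higher in the PBDE library of both pairs in both classes, at 359 against 259 CPM in fibroblast-like cells with progesterone. The 2 PBDE libraries carry consecutive numbers in the names of the deposited tables, apart from those of the other 3 libraries, so PBDEs and a shared handling of these libraries cannot be told apart.

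Between OVX_E2_P4_PBDE and OVX_E2_PBDE the mt- ratio was again below 1 in all 6 classes, at 0.716 to 0.867, and the nuclear ratio 1.03 to 1.10. In L-Hor-like cells 3 mt- genes were lower, and 1 nuclear member of 89 was higher and 1 lower (4.47% and 5.02% of all genes). In fibroblast-like cells 2 mt- genes were higher and 3 lower, and 1 nuclear member of 89 was higher and 1 lower (6.5% and 3.38%). mt-Nd3 was at 0.50 (0.457 to 0.546) and 0.558 (0.489 to 0.634) in L-Hor-like and fibroblast-like cells, mt-Nd2 at 0.577 and 0.569, and Cox7a1 in L-Hor-like cells at 2.04 (1.34 to 3.12) from 48 and 47 UMIs. The comparisons share libraries, and each treatment is also 1 library, so treatment and library cannot be told apart.

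**Figure D4:**
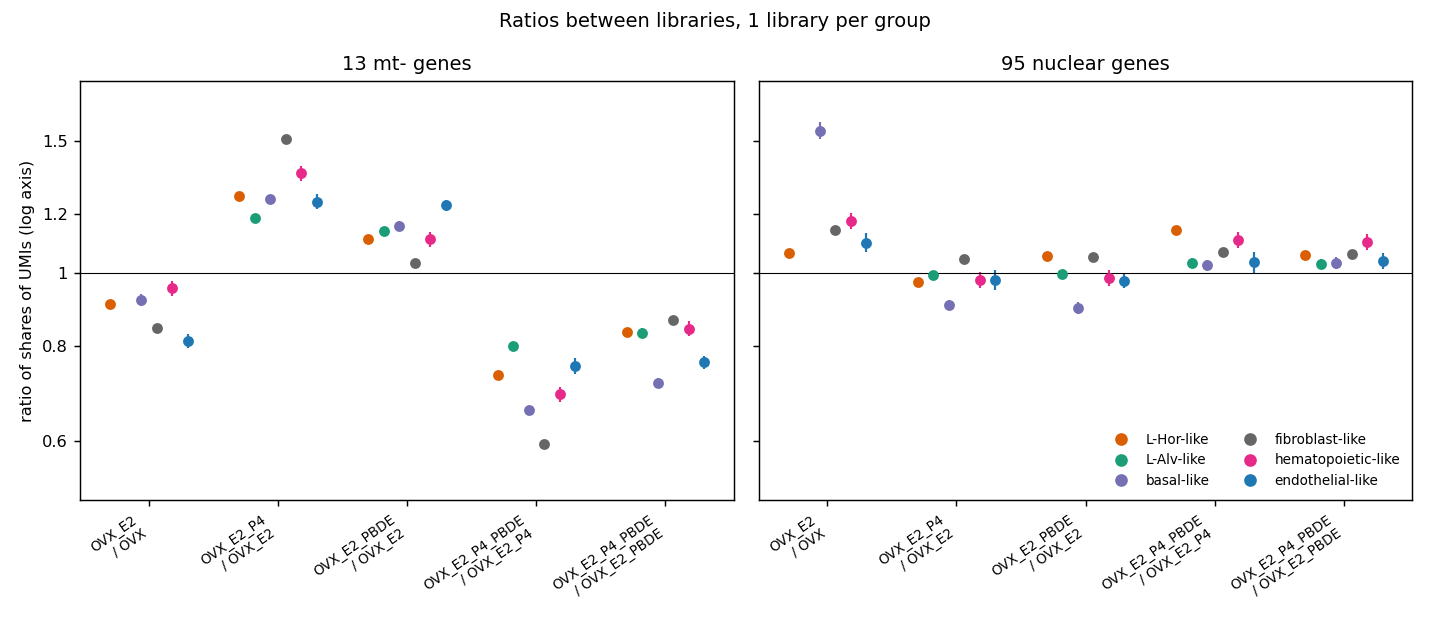
Ratio of the UMI share of the 13 mt- genes (left) and the 95 nuclear genes (right) between 2 libraries (log y axis) for 5 comparisons (x axis) and 6 cell classes, with exact 95% intervals for counting error. The mt- ratios lie on 1 side of 1 within each comparison, from 0.593 to 1.51, and the nuclear ratios lie between 0.901 and 1.17 apart from basal-like cells of OVX_E2 against OVX at 1.55.

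The overlapping mitochondrial pairs differed between libraries in each class. For every 100 UMIs of mt-Nd4, mt-Nd4l had 19.4 to 25.6 UMIs over the 6 classes in OVX_E2 and 17.7 to 24.5 in OVX_E2_P4_PBDE. It had 9.75 to 15.0 over the 5 classes in OVX, 10.9 to 15.1 over 6 in OVX_E2_PBDE and 8.37 to 13.3 over 6 in OVX_E2_P4. The lowest class of OVX_E2 and OVX_E2_P4_PBDE was therefore above the highest class of the other 3 libraries, and those 2 libraries differ from each other in both progesterone and PBDEs.

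mt-Atp8 per 100 UMIs of mt-Atp6 was 1.97 to 3.41 over classes in OVX_E2_PBDE. It was 3.28 to 5.01 in OVX, 3.32 to 5.53 in OVX_E2, 3.63 to 5.29 in OVX_E2_P4 and 3.37 to 8.03 in OVX_E2_P4_PBDE, and fibroblast-like cells were the highest class in each library. Reads in the shared bases printed above cannot be given to 1 gene of a pair. The genes of a pair are also carried on a common transcript. Neither quotient is therefore a balance of separate transcripts, and both are uncertain as levels. Their values are compared between libraries counted in the same way.

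**Figure D5:**
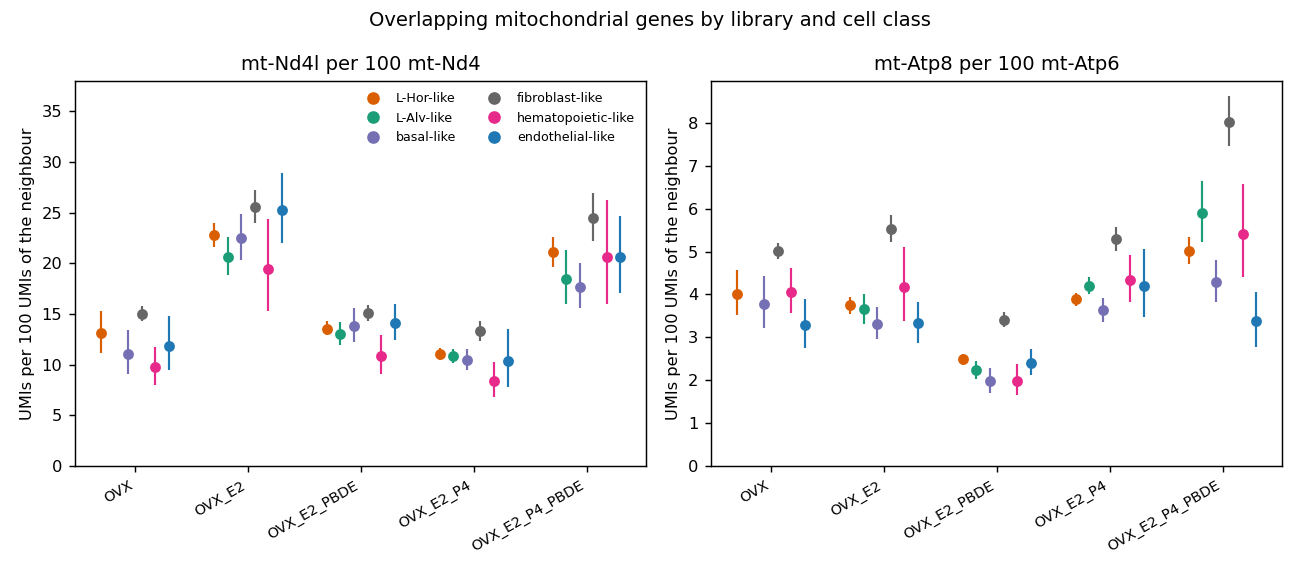
UMIs of mt-Nd4l per 100 of mt-Nd4 (left) and of mt-Atp8 per 100 of mt-Atp6 (right) on the y axes, by library (x axis) and cell class (colour), with exact 95% intervals for counting error. mt-Nd4l lies at 17.7 to 25.6 in OVX_E2 and OVX_E2_P4_PBDE and at 8.37 to 15.1 in the other libraries, and mt-Atp8 is lowest in OVX_E2_PBDE for each class.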

How the data were processed

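The authors deposited, for each of 5 droplet libraries of dissociated mouse mammary gland, raw UMI counts per gene and barcode, which the submitters' processing notes credit to Cell Ranger 2.0.0 and mm10. Reads that map to several places bear on nuclear members with pseudogenes or nuclear copies of mitochondrial DNA, whose counts are uncertain, and ambient RNA was not removed. Samples were grouped by the treatment in the labels, and totals of 19982067 to 42012988 UMIs set the precision.

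From these counts, each library was clustered with Seurat 5.3.0 (R 4.3.3; 2000 variable genes without the members, 10 principal components, 20 neighbours, resolution 0.3 for OVX and 0.5 for the others), and clusters were named where a marker score reached 0.25 (proliferation 0.4). Mixed luminal clusters were kept out of the classes, and no barcode was removed as a doublet; leaving out the top 20% by Scrublet score (scanpy 1.11.5, Python 3.11.15, 30 components) was an alternative. Classes with at least 20 barcodes in a library were summed and compared with edgeR 4.0.16 (quasi-likelihood test, TMM, filterByExpr, library block, Benjamini-Hochberg adjustment over all genes, 0.05), with DESeq2 1.42.0 as an alternative.

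In simulated data with 200 genes changed 4-fold, 98%, 96%, 90%, 89% and 81% were recovered for L-Hor-like, L-Alv-like, basal-like, hematopoietic-like and endothelial-like against fibroblast-like cells (on 11633, 11243, 10157, 10028 and 10013 genes), and 93% for L-Hor-like against L-Alv-like cells (10677 genes). In the same order, 4.85%, 4%, 2.17%, 1.66%, 5.81% and 3.63% of the calls were false. The simulation had a fixed dispersion, no gene differences between libraries and fewer changed genes than were called in the data. It does not show how differences smaller than 4-fold, such as the medians of the members, are recovered. Ratios between libraries have exact 95% intervals (scipy 1.17.1, pandas 2.3.3) for counting error only; single genes needed 50 UMIs over both libraries, and 1 UMI was added for ranking. Alternatives were library totals, no filter on low counts, each library left out, classes by marker UMIs (cutoff 0.2), barcodes over 5% or 10% mt- UMIs left out, other denominators, weighting by barcode, and Pi16 type fibroblasts only, the last chosen after seeing the data.

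Named genes were the complex II genes, the paralogues, the 5 largest and 5 smallest called differences of each contrast with 1 sign in every library, and the 3 largest and 3 smallest ratios of each treatment comparison in L-Hor-like and fibroblast-like cells. The members, lists and comparisons were chosen with earlier results of these data known.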

Additional observations from a re-analysis of the deposited data

Results flagged for a closer look

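Between the libraries with and without progesterone or PBDEs, the share of mt- genes lay on opposite sides of 1 in several paired comparisons. In L-Hor-like cells the ratio for progesterone was 1.27 without PBDEs and 0.837 with PBDEs, and the ratio for PBDEs was 1.11 without progesterone and 0.733 with it. In fibroblast-like cells the ratio for progesterone was 1.51 without PBDEs and 0.867 with PBDEs, and the ratio for PBDEs was 1.03 without progesterone and 0.593 with it. The nuclear share in L-Hor-like cells had a progesterone ratio of 0.976 without PBDEs and 1.06 with PBDEs. These opposite directions were not tested, since each condition is 1 library. The progesterone and the PBDE ratios come from the same 4 libraries, of which OVX_E2_P4 had the highest and OVX_E2_P4_PBDE the lowest mt- share in both classes, so they describe 1 pattern and not 2. Median UMIs per barcode in fibroblast-like cells were 5590 in OVX_E2_P4 and 4252 in OVX_E2_P4_PBDE, and in L-Hor-like cells 8982 and 5527, and the part of depth was not tested.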

How the results depend on the processing

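No paired analysis was possible because each treatment is 1 library and the labels give no replicate numbers, which holds for the comparisons between treatments, while the contrasts between classes had the library as a block throughout. Of the values given for single genes under the alternatives, 2542 kept their side of the threshold, 32 passed it newly and 104 no longer passed it. Another 3 changed sign while past the threshold in either setting. A change of sign in a gene past it in neither setting is counted among the 2542. Of the counts and shares, 342 stayed within the spread or 1.5 times the count and 80 did not. The cause was not tested for any of them.

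With library totals in place of TMM, where the median of all genes in endothelial-like against fibroblast-like cells lay at 0.43, the nuclear calls there were 68 higher and 0 lower, and Cox4i1 (0.22), Cox7b (0.20) and Sdhb (0.35) turned from lower to higher. DESeq2 gave 18 nuclear genes higher in basal-like cells. Without a filter on low counts, basal-like cells had 17 higher and 16 lower, hematopoietic-like 16 and 14, endothelial-like 15 and 22, and 1 mt- gene was lower in L-Hor-like than in L-Alv-like cells. Marker classes left 16 lower in L-Alv-like cells, the Scrublet alternative 7 higher and 2 lower in hematopoietic-like cells, and removal of barcodes over 5% mt- UMIs 15 higher and 6 lower in endothelial-like cells. With each library left out in turn, nuclear genes higher in basal-like cells numbered 18 to 35, lower in hematopoietic-like cells 5 to 10 and lower in endothelial-like cells 6 to 15, and mt- genes lower in L-Hor-like than L-Alv-like cells 0 to 1.

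For OVX_E2 against OVX, the mt- ratio in L-Hor-like cells was 0.923 (Scrublet) and 0.926 (barcode means), and the nuclear ratio 1.10 (marker classes) and 1.05 (barcode means). In fibroblast-like cells the mt- ratio was 0.831 and 0.829 (barcodes over 10% and 5% left out), 0.857 (marker classes), 0.826 (Scrublet), 0.820 (barcode means) and 0.734 (Pi16 type), and the nuclear ratio 1.16 (marker classes) and 1.06 (Pi16 type).

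For OVX_E2_P4 against OVX_E2, the L-Hor-like mt- ratio was 1.23 (over 5% left out), 1.22 (marker classes) and 1.28 (denominator without mt- genes), and the nuclear ratio 0.959 and 0.984 (marker classes, denominator). The fibroblast-like mt- ratio was 1.53 and 1.5 (over 10% and 5%), 1.62 (marker classes), 1.49 (Scrublet) and 1.44 (Pi16 type), and the nuclear ratio 1.08 (marker classes), 1.05 (denominator) and 1.00 (Pi16 type).

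For OVX_E2_PBDE against OVX_E2, the L-Hor-like mt- ratio was 1.09 (over 5%), 1.10 (marker classes) and 1.10 (barcode means), and the nuclear ratio 1.03 and 1.06 (marker classes, barcode means). The fibroblast-like mt- ratio was 1.05 and 1.05 (over 10% and 5%), 1.10 (marker classes), 1.07 (Scrublet), 1.06 (barcode means) and 1.12 (Pi16 type), and the nuclear ratio 1.07 (marker classes) and 1.07 (Pi16 type).

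For OVX_E2_P4_PBDE against OVX_E2_P4, the L-Hor-like mt- ratio was 0.760 (over 5%), 0.747 (marker classes) and 0.725 (denominator), and the nuclear ratio 1.10 and 1.13 (marker classes, denominator). The fibroblast-like mt- ratio was 0.618 (over 5%), 0.550 (marker classes) and 0.703 (Pi16 type), and the nuclear ratio 1.04 (marker classes), 1.06 (denominator) and 1.13 (Pi16 type).

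For OVX_E2_P4_PBDE against OVX_E2_PBDE, the L-Hor-like mt- ratio was 0.853 (over 5%) and the nuclear ratio 1.02 and 1.05 (marker classes, Scrublet). The fibroblast-like mt- ratio was 0.878 (over 5%), 0.810 (marker classes), 0.834 (Scrublet), 0.844 (barcode means) and 0.903 (Pi16 type), and the nuclear ratio 1.04 (marker classes). Depth limits the classes of few barcodes most, with 28 to 76 endothelial-like barcodes in a library.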
